A study of Mus musculus with 12 samples.

Results

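The genes described here code for the ligands, receptors and Smad proteins of the transforming growth factor β (TGF-β), bone morphogenetic protein (BMP) and activin pathway. They were chosen by name alone, as every gene in the count table whose symbol starts with Bmp or Smad plus a digit, Tgfb plus a digit or r, Gdf plus a digit, Bmpr, Acvr or Inhb. This gave 51 of the 20295 genes. A minimum of about 10 counts in at least 3 libraries left 43 of them for testing, and 37 of these were above it in all 12 libraries. The remaining 8 members had too few reads. Bmp10 had none, and the highest count in any library was 3 for Inhbe and Gdf2, 4 for Inhbc, 5 for Bmp15, 10 for Gdf7, 14 for Bmpr1b and 19 for Bmp7. The rule also takes in 4 genes of other proteins with matching symbols, which are kept apart, namely the procollagen protease Bmp1, the kinase Bmp2k, the adaptor Tgfb1i1 and the receptor-associated protein Tgfbrap1.

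RNA was sequenced from mature epididymal white adipocytes (eWAs) of lean male C57/BL6J mice, whose age is not given in the sources used here. The cells were freed with collagenase, floated, set at 50000 cells per well in a hydrogel and cultured for 2 days. They then received vehicle (DMSO), isoproterenol, an agonist of β-adrenergic receptors, over 3 h (ISO), compounds that block the fat-cleaving enzymes ATGL and HSL (Lip), or these compounds and then the agonist over 3 h (Lip+ISO), with 3 libraries in each group. No allele or transgene is named for any group, and floated cells can carry other cells of the fat pad. The comparisons ask which members respond to the agonist, and whether that response differs when the release of fatty acids from stored fat is blocked.

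Ligands of this superfamily are secreted dimers that bring together type I and type II receptor kinases. TGF-βs and activins act mainly through Smad2 and Smad3, and BMPs through Smad1, Smad5 and Smad9. Both sets join Smad4 to regulate genes in the nucleus, while Smad6 and Smad7 inhibit the pathway. In adipose tissue, activin A, coded by Inhba, and TGF-β are known to hold back adipogenesis, BMP4 to promote white and BMP7 brown adipocyte formation, and ALK7, the product of Acvr1c, to restrain lipolysis in mature adipocytes.

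The 12 libraries held 22632220 to 43707557 counts, and the members took 0.232% to 0.275% of them. Values are given as CPM, the count scaled to the library total with TMM factors, as mean ± SD of 3 libraries, and fold changes are on the log2 scale ± standard error (SE). A member is said to rise or fall where the p-value of edgeR's quasi-likelihood test, adjusted over all 13543 tested genes, was at or under 0.05. The adipocyte label was borne out by 9 adipocyte markers such as Adipoq, Plin1 and Lep, which summed to 34689 to 51508 CPM per library, whereas 7 epididymal markers reached at most 0.596 CPM in sum. Markers of other cells were present at low levels and moved with ISO. Their summed level in DMSO and in ISO was 55.6 to 69.6 and 115 to 173 CPM for 12 macrophage genes, 125 to 237 and 288 to 525 CPM for 11 endothelial genes, and 882 to 1457 and 1745 to 2778 CPM for 11 fibroblast genes. In Lip it was 60.1 to 64.7, 62.3 to 210 and 1040 to 1160 CPM, and in Lip+ISO 75.6 to 128, 97.1 to 287 and 938 to 1204 CPM. Of the tested genes, 7 of 11 macrophage, 4 of 11 fibroblast and 1 of 11 endothelial markers rose in ISO against DMSO. These shares were 63.6%, 36.4% and 9.09%, beside 12.3% of all tested genes. Mesothelial markers (8 genes in the table) spanned 29.4 to 72.2 CPM in DMSO and 72.1 to 86.1 in ISO, with 126 in Lip replicate 3 against 15.1 and 37.7 in the other Lip libraries. Mural markers (7 genes) spanned 72.9 to 126 CPM in DMSO and 118 to 190 in ISO. In each of these 5 lists none of the genes in the table was at 0 in every library. In cultures measured in bulk, fewer cells of a type and less RNA per cell cannot be told apart.

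**Figure D1:**
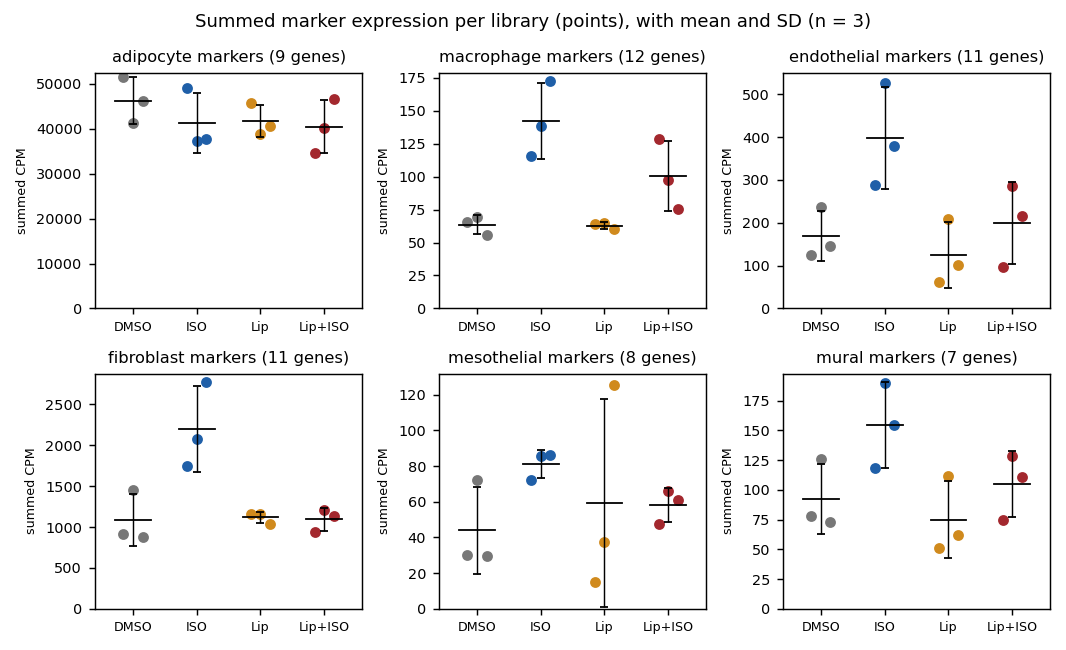
Summed CPM of marker genes of 6 cell types (vertical axes, one scale per panel, starting at 0) in each library of DMSO, ISO, Lip and Lip+ISO, with mean and SD of 3 libraries as lines and bars. The fibroblast sum lies between 1745 and 2778 CPM in ISO and between 882 and 1457 CPM in the 3 other groups, and the adipocyte sums overlap between all groups.

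In ISO against DMSO, 7 members rose and 10 fell of 43, where 12.3% of all tested genes rose and 13.9% fell. The members that passed as higher were the ligand genes Inhba, Gdf15, Gdf3, Gdf9, Gdf11, Tgfb1 and Tgfb3, of which Gdf3 reached the count minimum through the ISO groups alone. The members that fell were receptors (Acvr1, Acvr1b, Acvr1c, Acvr2a and Acvr2b), Smads (Smad2, Smad5, Smad6 and Smad9) and Tgfbrap1. With the lipases inhibited, in Lip+ISO against Lip, 4 rose and 10 fell, where 11.5% and 15.8% of all genes did. The 2 responses share no library, and 7 members fell in both (70% of each set of 10), namely Acvr1, Acvr1b, Acvr1c, Smad2, Smad5, Smad6 and Smad9. Over all tested genes, those that fell in both were 69.4% of the genes that fell without inhibitors and 60.9% of those that fell with them, so the share of the members was near that of all genes. Gdf9 rose in both, as did Gdf3, which the count minimum had selected for ISO. These 2 were 28.6% of the members that rose without inhibitors and 50% of those that rose with them. Over all tested genes these shares were 53.7% and 57.4%. The median log2 fold change of the 43 members was 0.05 in ISO against DMSO and -0.04 in Lip+ISO against Lip, beside 0.00 and -0.00 over all tested genes.

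**Figure D2:**
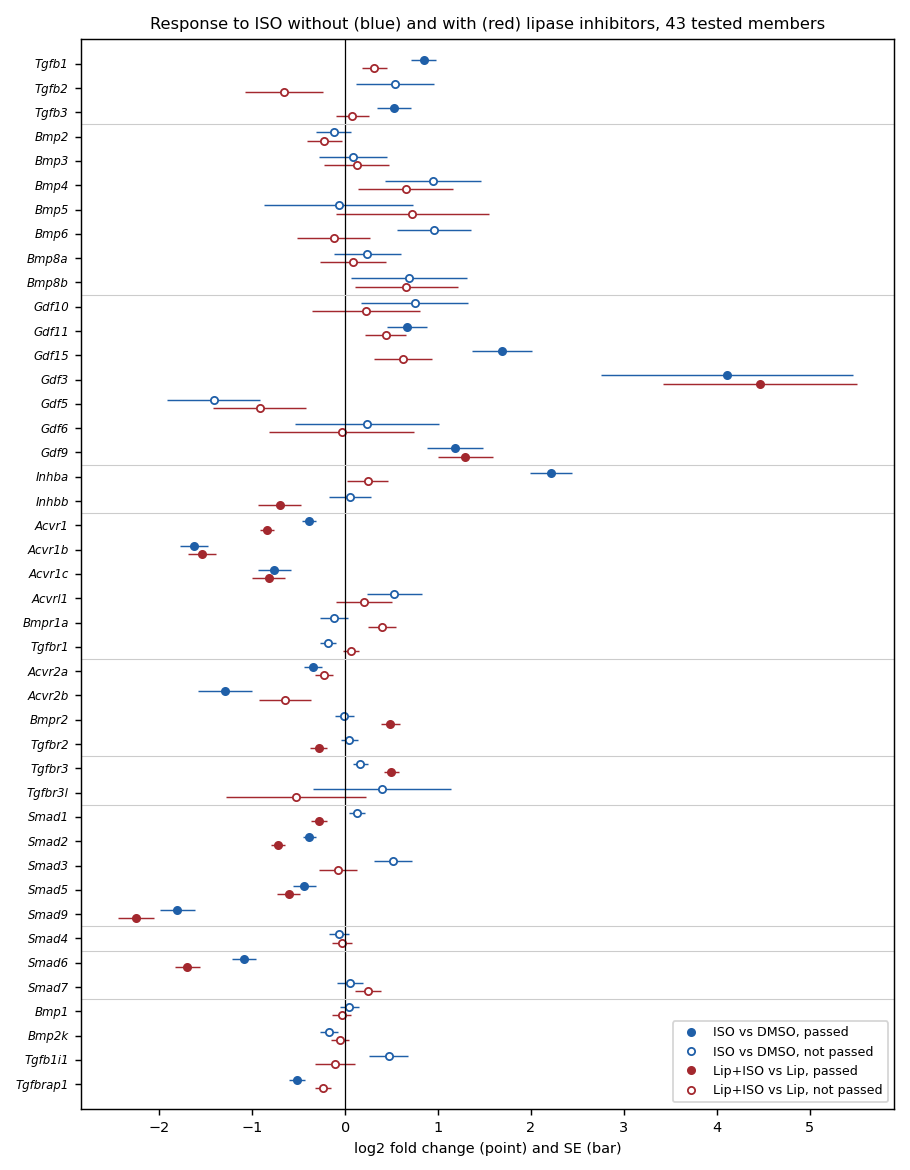
Log2 fold change (horizontal axis, points) and SE (bars) of the 43 tested members, grouped by role from top to bottom, in ISO against DMSO (blue) and in Lip+ISO against Lip (red). Filled points passed an adjusted p of 0.05; the ligand subunit Inhba stands at 2.22 without and 0.24 with inhibitors, while Acvr1b stands at -1.63 and -1.54.

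The promoter sequences of 4 members whose levels carry these results are shown so that they can be compared. They are the activin subunit gene Inhba and the 3 members that fell by at least 1 on the log2 scale both with and without inhibitors (Acvr1b, Smad6 and Smad9). Each stretch is the 120 bases before the RefSeq transcription start in GRCm38.p6, at chr13:16011731-16011850 (plus strand) for Inhba, chr15:101173952-101174071 (plus) for Acvr1b, chr9:64022060-64022179 (minus) for Smad6 and chr3:54755462-54755581 (plus) for Smad9. Capitals mark the matches to 7 motifs described after the sequences.
Inhba: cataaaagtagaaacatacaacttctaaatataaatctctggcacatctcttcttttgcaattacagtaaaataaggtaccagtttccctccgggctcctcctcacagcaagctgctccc
Acvr1b: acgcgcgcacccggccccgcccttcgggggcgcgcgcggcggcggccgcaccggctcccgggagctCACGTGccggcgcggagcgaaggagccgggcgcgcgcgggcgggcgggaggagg
Smad6: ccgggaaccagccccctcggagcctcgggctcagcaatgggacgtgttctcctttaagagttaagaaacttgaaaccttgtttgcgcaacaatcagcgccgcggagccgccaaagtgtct
Smad9: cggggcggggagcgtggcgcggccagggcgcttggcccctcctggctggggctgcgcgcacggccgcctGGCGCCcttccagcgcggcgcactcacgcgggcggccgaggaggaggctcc

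Acvr1b held the E-box CACGTG with its first base 54 bases before the start, Smad9 held the BMP element GGCGCC 51 bases before it, and the stretches of Inhba and Smad6 held none of the 7 motifs. The search covered both strands of the 250 bases before each start, in the promoters of 36 members and of 27025 genes. The cAMP response element TGACGTCA was in 0 of 36 members and in 1.77% of genes, and its shorter form TGACG, which lies within it, in 5 members (13.9%) and 19.8% of genes. The Smad box GTCTAGAC was in 0 members and 0.200% of genes, and the shorter Smad motif CAGAC, which is not contained in it, in 16 members (44.4%) and 45.8% of genes. GGCGCC was in 7 members (19.4%) and 10.8% of genes, CACGTG in 5 members (13.9%) and 6.86%, and the ATF4 element TGATGNAA in 2 members (5.56%) and 3.91%. These matches describe letters only.

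Levels of different genes can be compared per kilobase of counted exon. On that scale Gdf15 was the highest member in DMSO at 162 CPM per kb, followed by Bmp1 at 85.4, the BMP receptor gene Bmpr1a at 52.9, Smad6 at 51.1, Tgfb1 at 36.5, Smad7 at 32.7, Tgfbr2 at 24.4 and Smad4 at 23.8 CPM per kb. The TGF-β receptor genes Tgfbr1 and Tgfbr3 stood at 21.1 and 22.0, and the activin subunit genes Inhba and Inhbb at 6.23 and 6.67 CPM per kb. No BMP ligand was above 1.99 CPM per kb in DMSO, the level of Bmp6. In ISO the order changed at several members, among them Tgfb1, at 65.7 CPM per kb and then above Bmpr1a at 48.8, Inhba, at 29.0, Smad6, at 24.1, and Acvr1b, which went from 11.3 in DMSO to 3.65 CPM per kb.

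Among the ligands, Inhba, which codes for the βA subunit of activin A, had the highest fold change of the members with more than a few counts. Its level was 10.5, 11.7 and 6.3 CPM in the DMSO libraries, 46.6, 43.5 and 42.8 in ISO, 17.3, 13.1 and 10.2 in Lip and 18.8, 14.7 and 14.4 in Lip+ISO. The ISO libraries stood above the 9 others, and Lip overlapped with both DMSO and Lip+ISO. Inhba (chr13:16106308-16119044 in mm9) rose with ISO by 2.22 ± 0.22 on the log2 scale (4.65-fold, adjusted p = 1.7e-05). With inhibitors the response was 0.24 ± 0.22 (adjusted p = 0.47, 95% interval -0.26 to 0.74), and Lip+ISO against ISO gave -1.47 ± 0.22 (adjusted p = 0.0011). The difference between the responses, tested as an interaction, was -1.97 ± 0.31 (adjusted p = 0.0065). It kept its sign in all 15 fits that left libraries out, but without replicate 1 or replicate 2 of every group it no longer passed (adjusted p up to 0.12). Inhba was the only member with a passing interaction by edgeR with group means alone, where 0.901% of all genes were higher and 0.724% lower in it. DESeq2 also called Acvr1 and Bmpr2. With the replicate number as a block, 2 members were higher and 8 lower. Over all genes the interaction had 220 calls in the main fit, 560 with DESeq2 and 898 with the block.

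The other tested activin subunit gene, Inhbb, codes for the βB subunit of activin B. It had 36.9, 25.0 and 23.2 CPM in DMSO, 31.8, 32.1 and 24.3 in ISO, 41.3, 28.7 and 23.6 in Lip and 18.8, 23.4 and 15.2 in Lip+ISO. DMSO, ISO and Lip overlapped, and the Lip+ISO libraries lay under all of those of ISO and Lip and reached into the range of DMSO. Inhbb differed by 0.05 ± 0.23 in ISO against DMSO (adjusted p = 0.89) and fell by 0.70 on the log2 scale in Lip+ISO against Lip (adjusted p = 0.039). The latter call was lost in 7 of 15 fits, among them those without Lip replicate 1 or 2 or without Lip+ISO replicate 1 or 3 (adjusted p up to 0.24).

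Gdf15, a stress-induced hormone of the family that signals to the brainstem, had 143, 172 and 212 CPM in DMSO, 623, 572 and 505 in ISO, 135, 150 and 238 in Lip and 443, 177 and 185 in Lip+ISO. All ISO libraries were above all others, and Lip+ISO was split, with replicate 1 far above its fellows. It rose with ISO by 1.69 ± 0.32 (3.22-fold, adjusted p = 0.0021). In Lip+ISO against Lip the change was 0.62 ± 0.31 (adjusted p = 0.18), and Lip+ISO against ISO gave -1.08 ± 0.32 (adjusted p = 0.053). The last value was close to the threshold and passed without Lip replicate 3 (-1.08, adjusted p = 0.043) and without replicate 1 of every group (-1.56, adjusted p = 0.0044). Without Lip+ISO replicate 1 it was -1.64 (adjusted p = 0.0011), and the interaction, -1.07 ± 0.44 (adjusted p = 0.31) with all libraries, was then -1.63 (adjusted p = 0.016).

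The TGF-β1 gene Tgfb1, whose product is made in a latent form and drives fibrosis in fat, had 83.3, 84.3 and 61.7 CPM in DMSO, 140, 140 and 132 in ISO, 92.0, 87.0 and 72.7 in Lip and 115, 110 and 86.9 in Lip+ISO. ISO stood above all other libraries, and Lip+ISO lay between ISO and Lip, overlapping with Lip. It rose with ISO by 0.85 ± 0.14 (1.80-fold, adjusted p = 0.00063). The response with inhibitors was 0.31 ± 0.13 (adjusted p = 0.11, but 0.031 without Lip+ISO replicate 3), Lip+ISO against ISO gave -0.40 ± 0.13 (adjusted p = 0.088), and the interaction was -0.54 ± 0.19 (adjusted p = 0.22). Tgfb3 had 16.0 ± 4.21 CPM in DMSO and 22.9 ± 2.86 in ISO, with DMSO and ISO libraries that overlapped. Its change of 0.52 ± 0.18 was at the threshold (adjusted p = 0.0498) and was lost in 12 of 15 fits, with an adjusted p up to 0.22. Those included the fits without any 1 ISO or Lip+ISO library, DMSO replicate 1 or 3, or Lip replicate 2 or 3. Tgfb2 stayed between 1.85 and 7.19 CPM and passed in no comparison.

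**Figure D3:**
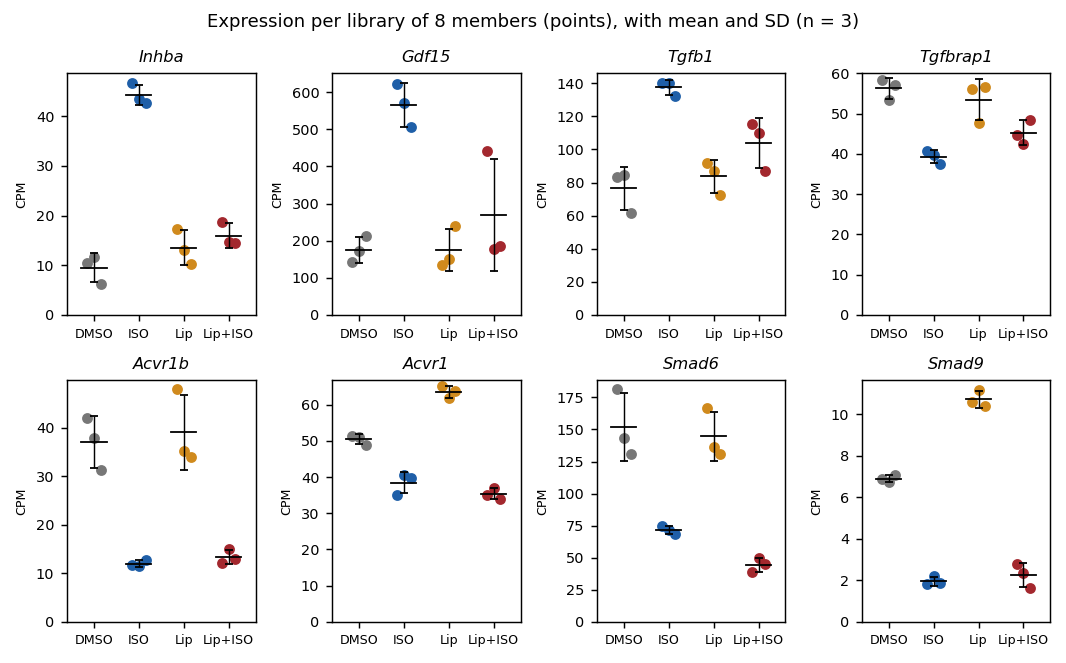
CPM in each library (points, vertical axes starting at 0) of Inhba, Gdf15, Tgfb1, Tgfbrap1, Acvr1b, Acvr1, Smad6 and Smad9 in the 4 groups, with mean and SD of 3 libraries. The ligand genes Inhba, Gdf15 and Tgfb1 are highest in ISO alone, and Acvr1b, Acvr1, Smad6 and Smad9 are lower in both groups with ISO than in both groups without it.

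Another 3 GDF genes rose, all at low levels. Gdf3, a ligand of ALK7 in adipose tissue, had 1, 0 and 0 counts in DMSO, 4, 5 and 14 in ISO, 3, 0 and 0 in Lip and 9, 17 and 35 in Lip+ISO. The libraries with and without ISO did not overlap, but Gdf3 passed the count minimum through the ISO groups alone, so that a member so chosen had to differ. Its summed counts, 23 against 1, gave a ratio of 20.7 (95% counting interval 3.36 to 852) in ISO against DMSO, and 61 against 3 gave 25.5 (8.31 to 127) in Lip+ISO against Lip. The edgeR calls (adjusted p = 0.041 and 0.0063) were lost in 7 and 1 of the 14 fits that tested it. Among the former were those without any 1 DMSO library, ISO replicate 3 or Lip+ISO replicate 2 (adjusted p up to 0.16).

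Gdf9, best known from the oocyte, had 1.20, 1.22 and 1.61 CPM in DMSO, 2.03, 2.58 and 4.58 in ISO, 1.82, 1.80 and 1.41 in Lip and 4.44, 4.08 and 3.81 in Lip+ISO. The groups with ISO were above those without it in every library. Gdf9 rose by 1.19 ± 0.30 without inhibitors (adjusted p = 0.012, up to 0.095 without DMSO replicate 1, without ISO replicate 3 or without replicate 2 or 3 of every group) and by 1.29 ± 0.29 with them (adjusted p = 0.0054, but 0.067 without replicate 2 of every group). Gdf11, a close relative of myostatin, rose by 0.67 ± 0.22 (adjusted p = 0.041) from 2.83 ± 0.653 to 4.48 ± 0.479 CPM. Its call was lost in 9 of 15 fits, including those without DMSO replicate 1 or 3, ISO replicate 2 or 3, Lip replicate 2 or Lip+ISO replicate 2 (adjusted p up to 0.25). Of the remaining GDF genes, Gdf5 had 2.35 ± 0.751 CPM in DMSO and 0.888 ± 0.163 in ISO (-1.42 ± 0.50, adjusted p = 0.054, but 0.012 without Lip+ISO replicate 1, 0.038 without Lip+ISO replicate 3 and 0.025 with DESeq2), and Gdf6 and Gdf10 passed in no comparison.

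None of the 7 tested BMP ligand genes passed in any of the 5 comparisons by edgeR with group means alone. Over all tested genes, 26.2% passed in ISO against DMSO, 27.3% in Lip+ISO against Lip and 8.94% in Lip+ISO against ISO. In Lip against DMSO 0.0517% did, and in the interaction 1.62%. Only 1 BMP ligand gene had an unadjusted p under 0.05, in ISO against DMSO, beside 5262 of all 13543 tested genes. In that comparison Bmp4 and Bmp6 passed by edgeR once replicate numbers were blocked on, and DESeq2 called 1, Bmp6. Over all genes the block gave 5212 calls there and DESeq2 3979. Bmp4 had 2.21, 1.72 and 0.861 CPM in DMSO and 3.13, 4.02 and 2.07 in ISO, which overlapped (0.95 ± 0.52, adjusted p = 0.20). Bmp6, known in iron regulation, had 3.73, 6.12 and 4.54 CPM in DMSO and 5.37, 12.4 and 10.0 in ISO, again with overlap (0.96 ± 0.40, adjusted p = 0.093, but 0.042 without ISO replicate 1 and 0.044 with DESeq2). Bmp8b, which is linked to thermogenesis in brown fat, had 0.402 ± 0.0816 CPM in DMSO, 0.679 ± 0.377 in ISO, 0.922 ± 0.243 in Lip and 1.47 ± 1.15 in Lip+ISO. Values of Bmp8a and Bmp8b are uncertain, since the genes are near-identical copies that overlap Oxct2a and Oxct2b on the same strand.

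For the ligands that were higher in ISO than in the 3 other groups (Inhba, Gdf15 and Tgfb1), the fibroblast marker sum was highest in the same group, with ISO libraries that did not overlap with any other library. The macrophage and endothelial sums were also highest in ISO, with 1 Lip+ISO library in reach of ISO for the macrophage sum. Among the fibroblast markers, 4 of 11 fell in Lip+ISO against ISO, beside 4.59% of all tested genes. In the interaction 1 passed as lower, beside 0.724% of all tested genes. The part of other cells in the ligand results was not tested.

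Of 12 tested receptor and coreceptor genes, 5 fell and none rose in ISO against DMSO, beside 13.9% and 12.3% of all tested genes. Among the 6 type I receptor genes 3 fell, and 3 fell with inhibitors, where 15.8% of all genes fell. Acvr1b codes for ALK4, the type I receptor of activins. It had 41.9, 37.9 and 31.2 CPM in DMSO, 11.7, 11.4 and 12.8 in ISO, 48.0, 35.3 and 33.9 in Lip and 12.2, 15.0 and 12.9 in Lip+ISO. Every library with ISO was under every library without it, with a gap from 15.0 to 31.2 CPM. Acvr1b (chr15:101004556-101043032 in mm9) fell by 1.63 on the log2 scale without inhibitors (SE 0.15, 3.10-fold, adjusted p = 8.5e-06) and by 1.54 with them (SE 0.15, 2.92-fold, adjusted p = 7.6e-06). Both calls held in all 15 fits that left libraries out. The difference between the responses was 0.09 ± 0.21 (adjusted p = 0.90, 95% interval -0.40 to 0.57).

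Acvr1 codes for ALK2, a type I receptor for BMPs. Its level was 51.4, 51.2 and 48.9 CPM in DMSO, 35.0, 40.6 and 39.8 in ISO, 65.1, 61.7 and 63.9 in Lip and 35.1, 36.9 and 34.0 in Lip+ISO. Lip was the highest group, DMSO the next, and the groups with ISO overlapped with each other below both. Acvr1 fell by 0.39 on the log2 scale without inhibitors (SE 0.08, adjusted p = 0.0023) and by 0.85 with them (SE 0.08, adjusted p = 3.6e-06). The interaction of -0.45 ± 0.11 missed the threshold (adjusted p = 0.056, but 0.028 without ISO replicate 1 and 0.013 with DESeq2), and Lip against DMSO gave 0.33 ± 0.08 (adjusted p = 0.29).

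Acvr1c, which codes for the adipocyte receptor ALK7, had 95.05, 79.1 and 84.6 CPM in DMSO, 65.6, 42.0 and 45.3 in ISO, 91.4, 67.8 and 58.9 in Lip and 37.9, 41.9 and 43.2 in Lip+ISO. The groups with ISO were under their controls without overlap. It fell by 0.76 on the log2 scale without inhibitors (SE 0.18, adjusted p = 0.0071, up to 0.079 without replicate 2 or 3 of every group) and by 0.82 with them (SE 0.18, adjusted p = 0.0037). The TGF-β receptor gene Tgfbr1 and the BMP receptor gene Bmpr1a did not pass in ISO against DMSO, at -0.18 ± 0.09 (adjusted p = 0.14) and -0.12 ± 0.15 (adjusted p = 0.59). Acvrl1, the endothelial receptor ALK1, had 10.1 ± 3.92 CPM in DMSO and 14.4 ± 2.96 in ISO (0.53 ± 0.30, adjusted p = 0.21, but 0.041 without DMSO replicate 2).

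Both activin type II receptor genes fell with ISO. Acvr2b had 2.59, 2.06 and 1.96 CPM in DMSO, 0.837, 0.904 and 0.951 in ISO, 2.4, 2.16 and 2.13 in Lip and 1.13, 1.11 and 2.02 in Lip+ISO. The ISO libraries were the lowest and did not overlap with any other group. Acvr2b fell by 1.29 on the log2 scale without inhibitors (SE 0.29, adjusted p = 0.0064, up to 0.080 without replicate 1 or 2 of every group), and its change with them was -0.65 ± 0.28 (adjusted p = 0.12, but 0.026 without Lip+ISO replicate 3). Acvr2a went from 31.9 ± 1.05 to 25.1 ± 1.49 CPM and fell by 0.35 on the log2 scale (SE 0.10, adjusted p = 0.021). Its call was lost in 7 of 15 fits, including those without DMSO replicate 1 or 3 or without ISO replicate 1 or 2 (adjusted p up to 0.14), and its reads could include some of Orc4, which overlaps it on the opposite strand.

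Among the Smads that receptors activate, 3 of 5 fell with ISO alone and 4 of 5 with inhibitors present. Over all tested genes, 13.9% and 15.8% fell. The call added with inhibitors, that of Smad1, was lost in 9 of 15 fits that left libraries out. Smad9, also called Smad8, is a BMP-pathway Smad, and its promoter stretch held the GGCGCC shown above. It had 6.88, 6.71 and 7.05 CPM in DMSO, 1.81, 2.19 and 1.86 in ISO, 10.6, 11.2 and 10.4 in Lip and 2.79, 2.33 and 1.63 in Lip+ISO. The 3 levels were far apart, with Lip above DMSO and DMSO above both ISO groups. Smad9 (chr3:54559504-54605191 in mm9) fell by 1.81 on the log2 scale without inhibitors (SE 0.19, 3.50-fold, adjusted p = 2.6e-05) and by 2.25 with them (SE 0.19, 4.76-fold, adjusted p = 2.5e-06). In Lip against DMSO it differed by 0.64 ± 0.18 (adjusted p = 0.57), and the interaction was -0.44 (adjusted p = 0.51).

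Smad2, which carries TGF-β and activin signals, had 78.2, 80.8 and 83.3 CPM in DMSO, 61.3, 59.3 and 64.9 in ISO, 69.1, 74.2 and 79.9 in Lip and 45.3, 45.3 and 44.8 in Lip+ISO. Lip+ISO was the lowest group and ISO the next, with no overlap between them or with the groups without ISO. Smad2 fell by 0.39 on the log2 scale with ISO alone (SE 0.07, adjusted p = 0.0018, but 0.069 without replicate 2 of every group) and by 0.72 with inhibitors (SE 0.07, adjusted p = 9.0e-06). Its BMP-pathway counterpart Smad5 went from 68.1 ± 3.64 to 50.2 ± 3.55 CPM and from 66.8 ± 1.14 in Lip to 43.8 ± 8.81 in Lip+ISO. It fell by 0.44 (SE 0.12, adjusted p = 0.018) and by 0.61 (SE 0.12, adjusted p = 0.0022) on the log2 scale. The former was lost in 5 of 15 fits, including those without DMSO replicate 1 or ISO replicate 1 or 2 (adjusted p up to 0.11).

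Smad3, the partner of Smad2, had 29.5, 32.1 and 40.8 CPM in DMSO and 44.0, 41.7 and 60.6 in ISO. The groups did not overlap, yet the change of 0.51 ± 0.21 did not pass (adjusted p = 0.085, but 0.047 without Lip+ISO replicate 3). The common Smad4 lay between 70.5 and 92.5 CPM in all 12 libraries and differed by -0.07 ± 0.11 in ISO against DMSO (adjusted p = 0.67).

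The inhibitory Smads differed from each other. Smad6, which preferentially blocks BMP receptors, had 181, 143 and 131 CPM in DMSO, 74.4, 71.4 and 68.6 in ISO, 167, 136 and 131 in Lip and 38.6, 49.6 and 45.4 in Lip+ISO. The groups with ISO were below those without it, and Lip+ISO was below ISO in every library. Smad6 (chr9:63800883-63869866 in mm9) fell by 1.09 on the log2 scale with ISO alone (SE 0.13, 2.13-fold, adjusted p = 7.6e-05) and by 1.70 with inhibitors (SE 0.13, 3.25-fold, adjusted p = 1.2e-06), and both calls held in all 15 fits. Smad7, which blocks TGF-β receptors, had 163, 134 and 139 CPM in DMSO, 143, 141 and 167 in ISO, 186, 155 and 168 in Lip and 234, 155 and 215 in Lip+ISO. Its groups overlapped throughout, and its change with ISO was 0.05 ± 0.14 (adjusted p = 0.82, 95% interval -0.27 to 0.37).

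Of the other proteins with a matching symbol, Tgfbrap1 fell. It had 58.4, 53.3 and 57.2 CPM in DMSO, 40.7, 39.7 and 37.5 in ISO, 56.1, 47.7 and 56.7 in Lip and 44.8, 42.6 and 48.6 in Lip+ISO. ISO was below every other library, and Lip+ISO reached into the range of Lip. The change was -0.52 ± 0.09 with ISO alone (adjusted p = 0.00089) and -0.24 ± 0.09 with inhibitors (adjusted p = 0.058, but 0.021 without Lip replicate 2). Bmp1, Bmp2k and Tgfb1i1 passed in no comparison.

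Leaving out libraries moved the count of members that rose with ISO from 7 to as few as 3 (without DMSO replicate 1 or ISO replicate 3) and the count that fell from 10 to as few as 5 (without replicate 2 of every group). The 8 members that passed in all 15 fits were Inhba, Gdf15 and Tgfb1 among those that rose and Acvr1, Acvr1b, Smad6, Smad9 and Tgfbrap1 among those that fell. For Lip+ISO against Lip they were Acvr1, Acvr1b, Acvr1c, Smad2, Smad5, Smad6, Smad9 and Tgfbr3. For Lip+ISO against ISO only Inhba passed in all 15 fits, and in the interaction no member did. The ISO and DMSO libraries did not overlap for 19 of 43 members and 43.3% of all tested genes, and those of Lip+ISO and Lip for 17 members and 39.1% of genes.

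The inhibitors alone left no member past the threshold. In Lip against DMSO, 0 of 43 passed by edgeR in either direction, where 0.00738% of all genes were higher and 0.0443% lower. At an unadjusted p under 0.05 there were 3 of 43 members, beside 582 of all 13543 tested genes. DESeq2 called 1 member, Acvr1, as higher, and 52 genes in all. Lip and DMSO libraries did not overlap for 3 members and for 10.4% of all genes. The 1 gene higher in Lip by edgeR, named here after its value was seen, was Atoh8, a BMP-induced transcription factor on the list of target genes. It had 51.6, 40.9 and 41.2 CPM in DMSO and 89.5, 80.2 and 84.6 in Lip, without overlap (0.93 ± 0.12, adjusted p = 0.020). Its call was lost without DMSO replicate 2 or 3 or any 1 Lip library (adjusted p = 0.067 to 0.19) and without replicate 1, 2 or 3 of every group (adjusted p = 0.16, 0.63 and 0.38), while DESeq2 gave an adjusted p of 1.2e-07.

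Under the agonist, 7 members differed with inhibitors past the threshold, and only Inhba did so in all 15 fits that left libraries out. In Lip+ISO against ISO, 3 rose (Tgfbr3, Bmpr2 and Tgfbr1) and 4 fell (Inhba, Smad1, Smad2 and Smad6), where 4.36% of all genes were higher and 4.59% lower. The members that rose code for receptors or a coreceptor, and the only one of the 7 to change by at least 1 on the log2 scale was Inhba. None of the 3 passed in ISO against DMSO. This comparison shares its ISO libraries with ISO against DMSO and its Lip+ISO libraries with Lip+ISO against Lip.

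**Figure D4:**
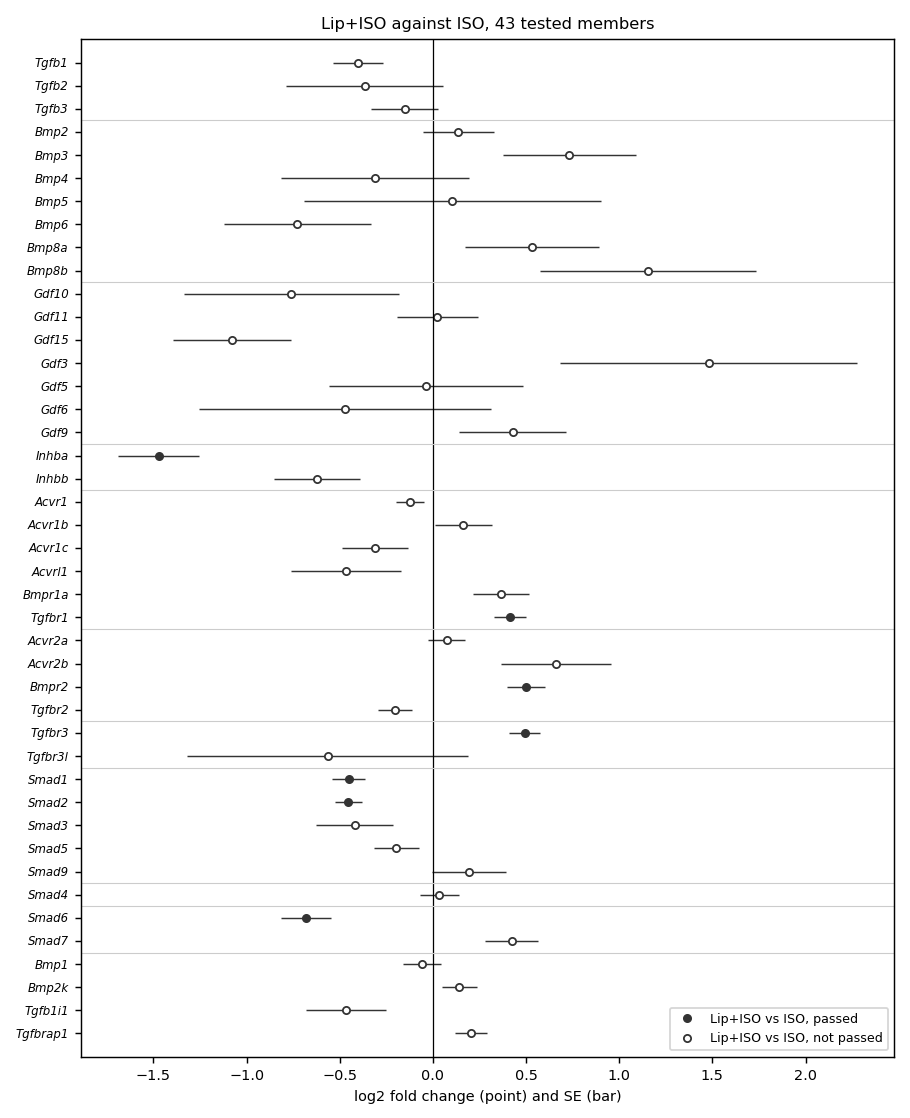
Log2 fold change (horizontal axis, points) and SE (bars) of the 43 tested members in Lip+ISO against ISO, grouped by role. Filled points passed an adjusted p of 0.05; Inhba at -1.47 and Smad6 at -0.68 are the lowest that passed, and Bmpr2 at 0.50 and Tgfbr3 at 0.49 the highest.

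Tgfbr3, or betaglycan, a coreceptor that presents TGF-β2 and binds inhibin, had 128, 138 and 134 CPM in DMSO, 152, 140 and 155 in ISO, 159, 154 and 133 in Lip and 200, 208 and 221 in Lip+ISO. Lip+ISO stood above all other libraries. It was higher than ISO by 0.49 ± 0.08 (adjusted p = 0.0024, but 0.095 without replicate 2 of every group) and higher than Lip by 0.50 ± 0.08 (adjusted p = 0.00052). In ISO against DMSO the change was 0.16 ± 0.08 (adjusted p = 0.16), and the interaction of 0.33 did not pass (adjusted p = 0.20).

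Bmpr2, the type II receptor of BMPs, had 140, 127 and 142 CPM in DMSO, 149, 120 and 138 in ISO, 152, 128 and 131 in Lip and 195, 171 and 207 in Lip+ISO. Again Lip+ISO was above every other library, while the 3 other groups overlapped. The difference was 0.50 ± 0.10 from ISO (adjusted p = 0.0087, up to 0.14 without replicate 2 or 3 of every group) and 0.48 ± 0.10 from Lip (adjusted p = 0.0034, but 0.084 without replicate 3 of every group). In ISO against DMSO it was -0.01 ± 0.10 (adjusted p = 0.95), a value whose sign changed with the size factors used, and the interaction was 0.50 ± 0.14 (adjusted p = 0.13, but 0.038 with DESeq2).

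Tgfbr1, which codes for ALK5, had 131, 111 and 117 CPM in DMSO, 114, 103 and 98.0 in ISO, 145, 131 and 126 in Lip and 145, 140 and 135 in Lip+ISO. The Lip+ISO libraries were above those of ISO and overlapped with those of Lip. The difference from ISO was 0.41 ± 0.09 (adjusted p = 0.010, up to 0.16 without ISO replicate 3 or without replicate 2 or 3 of every group). Tgfbr2, its type II partner, had 105 ± 5.74 CPM in Lip+ISO, 121 ± 6.28 in ISO and 127 ± 14.9 in Lip. It fell by 0.28 on the log2 scale against Lip (SE 0.09, adjusted p = 0.036), a call lost in 7 of 15 fits, including those without DMSO replicate 3, Lip replicate 3 or Lip+ISO replicate 1 or 3 (adjusted p up to 0.34). Bmpr1a had 344 ± 11.7 CPM in Lip+ISO and 261 ± 35.9 in Lip (0.40 ± 0.15, adjusted p = 0.068, but 0.036 without Lip replicate 1, 0.022 without ISO replicate 1 and 0.028 with DESeq2).

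Of the Smads lower in Lip+ISO than in ISO, Smad6 and Smad2 were also lower in ISO than in DMSO. Smad6 differed by -0.68 ± 0.13 (adjusted p = 0.0064, up to 0.067 without replicate 2 or 3 of every group) and Smad2 by -0.45 ± 0.07 (adjusted p = 0.0018, but 0.064 without replicate 2 of every group). Smad1, a BMP-pathway Smad, had 23.2, 23.0 and 21.9 CPM in DMSO, 24.1, 27.2 and 22.8 in ISO, 21.9, 21.8 and 22.3 in Lip and 17.5, 18.9 and 17.9 in Lip+ISO. Lip+ISO was the lowest group with no overlap, at -0.45 ± 0.09 from ISO (adjusted p = 0.0068, up to 0.13 without replicate 1, 2 or 3 of every group). Against Lip it fell by 0.28 on the log2 scale (SE 0.09, adjusted p = 0.032), which was lost without any 1 Lip or Lip+ISO library (adjusted p up to 0.22). Smad7 gave 0.42 ± 0.14 in Lip+ISO against ISO (adjusted p = 0.087, but 0.011 without Lip+ISO replicate 2 and 0.037 with DESeq2). The libraries of Lip+ISO and ISO did not overlap for 15 members and 25.4% of all genes.

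**Figure D5:**
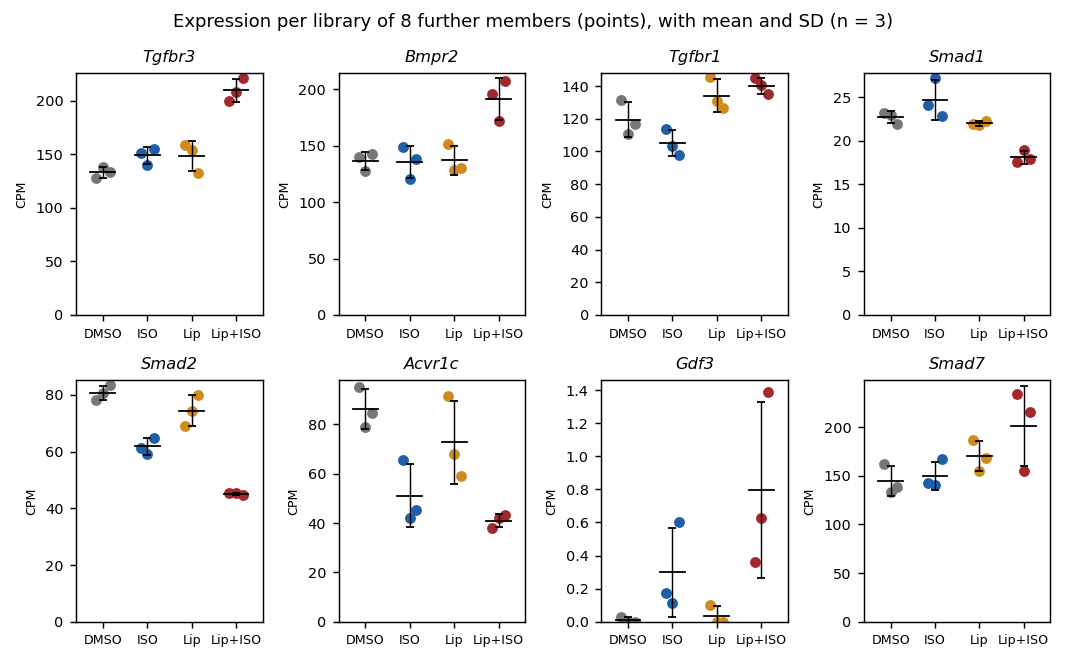
CPM in each library (points, vertical axes starting at 0) of Tgfbr3, Bmpr2, Tgfbr1, Smad1, Smad2, Acvr1c, Gdf3 and Smad7 in the 4 groups, with mean and SD of 3 libraries. Lip+ISO is the highest group for Tgfbr3 and Bmpr2 and the lowest for Smad1 and Smad2, and Gdf3 reaches 1.39 CPM at most.

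The pathway also has regulators outside the receptor and Smad families. Of 29 tested genes for extracellular antagonists and ligand-binding proteins, 10 rose (34.5%) and 2 fell (6.90%) in ISO against DMSO, beside 12.3% and 13.9% of all tested genes, with a median log2 fold change of 0.54. Those with the highest changes were Lrrc32 (GARP, which holds latent TGF-β at the cell surface; 63.3 to 171 CPM, 1.43 ± 0.22, adjusted p = 0.00044), the latent TGF-β binding protein gene Ltbp4 (1.06 ± 0.30, adjusted p = 0.019), the activin antagonist follistatin (Fst; 15.2 to 30.0 CPM, 0.99 ± 0.34, adjusted p = 0.047) and fibrillin-1 (Fbn1; 0.96 ± 0.23, adjusted p = 0.0083). Among those that fell was thrombospondin-1 (Thbs1), an activator of latent TGF-β, by 0.99 on the log2 scale (4026 to 2023 CPM, SE 0.19, adjusted p = 0.0025). In Lip+ISO against Lip 4 rose and 3 fell (13.8% and 10.3%, beside 11.5% and 15.8% of all genes), in Lip against DMSO none passed, and in Lip+ISO against ISO 2 fell, Thbs1 by 1.17 to 900 CPM (adjusted p = 0.0025) and Emilin1, which restrains TGF-β processing, by 0.94 on the log2 scale (adjusted p = 0.0041). Several genes of this list, Fbn1 and Ltbp4 among them, are also expressed by fibroblasts, whose marker sum was higher in ISO, and the part of fibroblasts in these counts was not tested.

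Of 33 tested regulators of receptors and Smads, 6 rose and 4 fell with ISO alone (median 0.00), which is 30.3% called and near the 26.2% of all tested genes. With inhibitors 7 rose and 7 fell (42.4% called, beside 27.3% of all genes), and in Lip+ISO against ISO 2 rose (6.06%, beside 4.36%). Those that rose with ISO include the decoy receptor gene Bambi (2.58 to 7.32 CPM, 1.51 ± 0.29, adjusted p = 0.0024), the Smad corepressor genes Tgif1 (1.21 ± 0.22, adjusted p = 0.0017) and Skil (0.92 ± 0.22, adjusted p = 0.0080), and Ube2o, a ubiquitin ligase (0.35 ± 0.09, adjusted p = 0.015). The BMP coreceptor genes Rgma and Rgmb fell by 1.20 (adjusted p = 0.00030) and 0.39 (adjusted p = 0.023) on the log2 scale, and the ubiquitin ligase genes Smurf1 and Trim33 fell by 0.50 and 0.40 (adjusted p = 0.0043 for both). The deubiquitinase gene Usp9x and the coactivator gene Ep300 were higher in Lip+ISO than in ISO, by 0.48 ± 0.09 (adjusted p = 0.0069) and 0.43 ± 0.11 (adjusted p = 0.027). Of 8 ligand genes outside the naming rule only Lefty1 and Gdnf were tested, and neither had an unadjusted p under 0.05 in any comparison by edgeR. DESeq2, which was run on all genes without that minimum, called 1 of the 8, Amh, in ISO against DMSO.

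The list of 28 tested target genes moved in both directions, with 9 higher (32.1%) and 5 lower (17.9%) in ISO against DMSO, beside 12.3% and 13.9% of all genes, and a median of 0.10. Id1, Id2 and Id3, classic BMP targets, were lower or did not pass. Id4, also on the list, was called by DESeq2 in this comparison, and its value is not reported here. Id3 fell from 317 ± 24.7 to 174 ± 19.5 CPM (-0.86 ± 0.13, adjusted p = 0.00047) and Id2 from 38.6 ± 0.533 to 27.0 ± 3.28 CPM (-0.51 ± 0.17, adjusted p = 0.044), while Id1 gave -0.24 ± 0.12 (adjusted p = 0.16). The cell cycle inhibitor gene Cdkn2b fell by 0.87 (adjusted p = 0.00038) and the matricellular gene Cyr61 by 0.84 on the log2 scale (adjusted p = 0.0045). The highest rises were in Junb, an AP-1 gene that many stimuli induce (42.3 to 353 CPM, 3.06 ± 0.31, adjusted p = 1.7e-05), Msx2 (2.08 ± 0.71, under 1 CPM on average, adjusted p = 0.047), the collagen gene Col1a1 (0.96 ± 0.18, adjusted p = 0.0018) and Snai1 (0.94 ± 0.33, adjusted p = 0.0498).

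With inhibitors, in Lip+ISO against Lip, 5 target genes rose and 7 fell (17.9% and 25%, beside 11.5% and 15.8% of all genes), and in Lip+ISO against ISO 3 were higher and 3 lower (10.7% each, beside 4.36% and 4.59%). Id2 and Id1 were higher in Lip+ISO than in ISO, by 0.92 ± 0.17 (adjusted p = 0.0049) and 0.53 ± 0.12 (adjusted p = 0.017), as was Ndrg1 (0.52 ± 0.15, adjusted p = 0.043). Among the genes that were lower were Col1a1 and Cyr61, at -0.73 ± 0.18 (adjusted p = 0.024) and -0.69 ± 0.18 (adjusted p = 0.032). The TGF-β inducible gene Klf10 was the 1 target gene with a passing interaction, at 0.48 ± 0.11 (adjusted p = 0.046).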

How the data were processed

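The table deposited by the authors holds raw read counts per RefSeq gene for the 12 libraries, with no normalization, and the counted exon length of each gene in base pairs. Per the study's methods, reads were aligned to mm9 with STAR 2.4.2a and counted with HOMER and iRNA-seq, where HOMER kept a single read per position and length, so strong genes may be held down. Whether counting used strand is not given in the sources used here, so overlapping genes are reported as uncertain. The study's legend for white adipocytes names SR-3420 as the stimulus, whereas the sample titles name ISO, which was used here.

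Groups and replicate numbers came from the sample titles. The naming rule that gave the members uses symbols only, and it and the gene lists were set with earlier results of these data known. The study names 3 independent experiments per condition for its cultures, and the titles do not say what the replicate number stands for. If the libraries of a group are not separate cultures, p-values measure only the spread between these samples.

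Differential expression used edgeR 4.0.16 under R 4.3.3. The filter, filterByExpr, asked for about 10 counts (0.367 CPM) in at least 3 libraries, which left 13543 of 20295 genes. No library had a count for 1643 genes. Libraries were scaled by TMM, with factors of 0.924 to 1.07, and all 12 libraries entered a single quasi-likelihood fit with 4 group means. Tests were two-sided, with Benjamini-Hochberg adjustment over all tested genes. The SE is the size of the log2 fold change divided by the square root of the test's F statistic. The 95% intervals use a t distribution with 8 degrees of freedom. An interval can therefore hold 0 where the unadjusted p is under 0.05, as for Tgfb1i1 in ISO against DMSO. The interaction subtracts ISO against DMSO from Lip+ISO against Lip. The biological coefficient of variation was 0.163, and 3 counts correspond to 0.0678 to 0.132 CPM, so members near that level cannot be ranked. The ratio interval of Gdf3 covers counting error only. The test was checked on simulated counts. Every member past an adjusted p of 0.05 in any comparison is named, along with members with a known role in adipocytes. Of each list of other pathway genes, up to 4 in each direction are named, and some list genes that the counts include are not reported here by name. Alternatives were other size factors, no filter, DESeq2 1.42.0, a replicate block, only the groups compared, and fits without each library or replicate number. Promoter sequences are those of RefSeq for GRCm38.p6, where 36 of 51 members matched by symbol, and gene coordinates are those of the table in mm9.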

Additional observations from a re-analysis of the deposited data

Results flagged for a closer look

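The ISO response of Inhba depended on whether lipase inhibitors had been given, by a test of the difference itself (the edgeR interaction). The value was -1.97 ± 0.31 on the log2 scale (adjusted p = 0.0065), from a response of 2.22 without and 0.24 with inhibitors. Every library of ISO was above every library of Lip+ISO. In the 15 fits that left libraries out the value lay between -2.14 and -1.74, and the adjusted p reached 0.12 without replicate 1 or replicate 2 of every group. The fibroblast marker sum, 1745 to 2778 CPM in ISO and 938 to 1204 CPM in Lip+ISO, moved in the same way, and its part in the result was not tested.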

How the results depend on the processing

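A change of at least 1 on the log2 scale left 4 members higher and 4 lower in ISO against DMSO. Of all 13543 tested genes, 769 were higher and 244 lower by this rule. In Lip+ISO against Lip, 2 members were higher and 3 lower, beside 568 and 428 of all tested genes. In Lip+ISO against ISO the members were 0 and 1, beside 107 and 162 of all tested genes. DESeq2 called 1 member higher in Lip against DMSO, beside 52 of all genes called in either direction. In the interaction it called 1 member higher and 2 lower, beside 560 of all genes called in either direction. Leaving out libraries gave 3 to 8 members higher and 5 to 11 lower in ISO against DMSO, 2 to 5 and 7 to 10 in Lip+ISO against Lip, 0 to 4 and 1 to 5 in Lip+ISO against ISO, 0 to 1 and 0 to 2 in the interaction, and 0 in both directions in Lip against DMSO. The lowest counts that passed in ISO against DMSO came without DMSO replicate 1 or ISO replicate 3 (3 higher) and without replicate 2 of every group (5 lower). Of the named values over the settings that left out no library, 448 kept their direction and side of the threshold, 35 moved past it, 13 fell short of it and 1 changed sign. That 1 was Bmpr2 in ISO against DMSO, at 1.4e-05 with RLE size factors. Over the fits that left libraries out, values that changed sign were those of Bmpr2 (-0.0853 to 0.0660), Inhbb (-0.11 to 0.29) and Smad7 (-0.0623 to 0.17) in ISO against DMSO, Gdf15 in Lip+ISO against Lip (-0.0819 to 1.12) and the interaction of Acvr1b (-0.12 to 0.28). None of these had passed. The cause was not tested. Scaling by library totals alone put the median of all genes at -0.12 in Lip+ISO against Lip. Depth limits the members under about 1 CPM, Gdf3, Bmp5, Bmp8b and Tgfbr3l among them.

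With the replicate number as a block, 13 members were higher and 13 lower in ISO against DMSO. These counts were 6 and 12 in Lip+ISO against Lip, 5 and 12 in Lip+ISO against ISO, and 2 and 8 in the interaction. Calls over all 13543 tested genes also went up, from 3548 to 5212 in ISO against DMSO. They went from 3702 to 4819 in Lip+ISO against Lip, 1211 to 2607 in Lip+ISO against ISO and 220 to 898 in the interaction. No member called without the block was lost. In ISO against DMSO those gained as higher were the ligand genes Bmp4 (adjusted p = 0.035), Bmp6 (adjusted p = 0.0021) and Gdf10, the Smad gene Smad3 (adjusted p = 0.00029), the receptor gene Acvrl1 (adjusted p = 0.012) and Tgfb1i1, so the rise was then not limited to ligands. Those gained as lower were Gdf5, Tgfbr1 and Bmp2k. In Lip+ISO against Lip, Bmpr1a and Tgfb1 were gained as higher and Acvr2a and Tgfbrap1 as lower. In Lip+ISO against ISO the members gained as higher were Bmpr1a and Smad7. Those gained as lower there were Acvrl1, Bmp6, Gdf10, Gdf15, Inhbb, Smad3, Tgfb1 and Tgfb1i1. In the interaction Inhba was joined by Bmpr1a and Bmpr2 as higher and by Acvr1, Bmp6, Inhbb, Smad2, Smad3, Tgfb1 and Tgfb1i1 as lower. Whether the numbers pair the libraries was checked by the correlation of deviations from group means. It was over 0.1 in 17 of 18 pairs with the same number (0.0373 to 0.369), against -0.329 to 0.0853 for the other pairs, and 12 of 12 libraries correlated best with their own number. This is a hint from the data and not from the labels, which do not say that a number marks a shared batch.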
